A study of Mus musculus with 9 samples.

Results

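Matrix proteins and their cell-surface receptors were followed in cells of the mouse neuroblastoma line N1E-115 in which the gene Tcof1 had been raised or lowered. The genes were the collagen chains, the laminin chains, the integrin subunits and 5 single glycoproteins of the matrix (Fn1, Tnc, Sparc, Nid1 and Vtn), picked by gene symbol alone among probe sets with exactly 1 symbol. This gave 124 of 22626 probe sets, which stood for 73 of 12393 genes. Collagens supplied 58 probe sets of 36 genes, laminins 16 of 10, integrins 41 of 22 and the single glycoproteins 9 of 5. Itgb2l, named as an integrin beta 2-like gene, was counted among the integrins.

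Total RNA was measured on 9 arrays in 3 groups of 3: cells overexpressing mouse Tcof1, cells with Tcof1 knocked down, and wildtype cells. Each group carried the letters A, B and C, and the labels do not say whether the letters stand for separate cultures, so the spread behind each p-value is that among these arrays and may be technical alone. The construct behind each change of Tcof1, and whether a group was 1 clone, are details not given in the sources used here, and no vector control is named in the labels. Tcof1 encodes treacle, a nucleolar protein needed for transcription of ribosomal RNA genes. N1E-115 cells are sympathetic nervous system tumour cells that grow in culture without any host tissue.

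Collagens, laminins and fibronectin are secreted and assemble outside the cell. Laminins and collagen IV form the sheets of basement membranes, which nidogen, encoded by Nid1, ties together, while fibrillar collagens form the fibres of connective tissue. Integrins are dimers of an alpha and a beta subunit that bind these proteins and link them to the actin skeleton, and in neuroblasts they carry adhesion, migration and neurite outgrowth on laminin and fibronectin.

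Array medians lay between 164.1 and 185.95 intensity units, and the correlation of 2 arrays was 0.9725 to 0.9782 inside a group and 0.9559 to 0.9782 across groups. The gene Tcof1 had 3 probe sets. Against wildtype, 1 of them passed in the overexpressing cells (log2 fold change 0.87 ± 0.21 SE, adjusted p = 0.0241), and none passed in the knockdown cells (0.06, -0.22 and -0.40, adjusted p = 0.934, 0.744 and 0.510), so these probe sets do not check the knockdown label. That call was lost without overexpressed array A or C or wildtype array A or B (adjusted p = 0.0511 to 0.0973). Of 13 measured marker genes of neuroblastoma and sympathoadrenal cells, 11 lay above the median of all probe sets on all 9 arrays. Among 12 fibroblast markers, 9 lay below the median on all 9 arrays and the filament gene Vim and S100a4 above it.

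In cells overexpressing Tcof1, 10 of the 124 probe sets were lower than in wildtype and 0 were higher. The 10 stood for 6 genes: Sparc, Fn1, Lama4, Col18a1, Itga3 and Itgb5. They made up 8.06% of the 124, against 5.07% lower and 4.52% higher among all 22626 probe sets tested. Sparc, Lama4, Col18a1 and Itgb5 each supplied 2 of the 10. With each gene read by its brightest probe set, 6 of 73 genes were lower (8.22%), against 6.21% of all 12393 genes. By gene, the share thus lay nearer to that of all genes. A call is an adjusted p under 0.05 from limma on log2(intensity + 16), with Benjamini-Hochberg adjustment over all 22626 probe sets. The median log2 fold change was -0.16 over the 124 and -0.02 over all probe sets, and 67.7% of the 124 had a value below 0, against 52.1% of all. In a sample of bulk RNA, fewer cells of a type and less RNA per cell cannot be told apart.

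In cells with Tcof1 knocked down, 0 of the 124 probe sets passed against wildtype by limma, where 0.00442% of all probe sets were called higher and 0.00884% lower. At an unadjusted p under 0.05 there were 8, or 6.45% of the 124, against 10.9% of all probe sets, and 2 of the 8 were above and 6 below wildtype. No other tool was run. The median log2 fold change was 0.03 over the 124 and 0.03 over all probe sets.

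Set directly against the knockdown cells, the overexpressing cells had 7 of the 124 probe sets lower and 0 higher, for 5 of the same genes (Sparc, Fn1, Col18a1, Itga3 and Itgb5). This was 5.65% of the 124, against 4.14% lower and 3.43% higher of all probe sets. With each gene read by its brightest probe set, 4 of 73 genes were lower (5.48%), against 5.25% of all 12393 genes. The median was -0.18 over the 124 and -0.05 over all. This comparison shares the 3 overexpressing arrays with the first, and both comparisons with wildtype share the 3 wildtype arrays.

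Signal was low for most of these genes. By the mean over 9 arrays, 80 of the 124 lay at or below the 40th percentile of all probe sets, here called dim. All 10 called probe sets were among the other 44, of which they made up 22.7%, against 7.75% of all probe sets in that range. These shares count a gene once for each called probe set. By gene, the 10 stood for 6 of the 31 genes in that range, against 801 of all 8147 genes there with a lower call. The median SD within groups was 0.232 on the log2 scale for the 44 and 0.432 for the 80, against 0.194 and 0.394 for all probe sets in the same ranges. Above the array median on all 9 arrays were 24 probe sets of 16 genes. Of these, 7 probe sets of 5 genes were lower in overexpressing cells, or 29.2% of the 24 probe sets. Of all 9604 probe sets in that range, 9.06% were lower. By gene this was 5 of 16, against 673 of all 6071 genes in the same range.

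**Figure D1:**
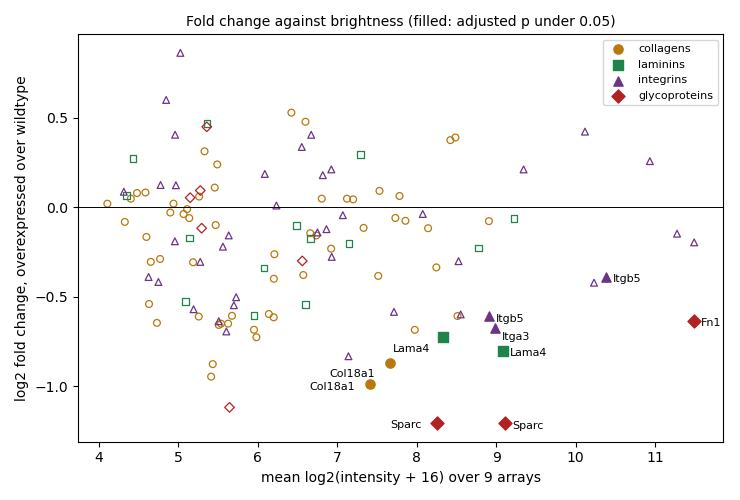
Log2 fold change of overexpressed over wildtype (vertical axis) against the mean log2(intensity + 16) over 9 arrays (horizontal axis) for the 124 probe sets, with symbols by family and filled symbols for an adjusted p under 0.05. The 10 filled symbols all lie below 0, between -1.21 and -0.39, and none lies among the dimmer probe sets at the left.

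Start regions are shown for those of the 6 lower genes that have a RefSeq window, so that their promoter letters can be set side by side. RefSeq windows of assembly GRCm38.p6, running from 250 bases before to 50 after each gene's start, matched 51 of the 73 genes with 58 windows. Of the 6 genes, Sparc, Itga3, Itgb5 and Col18a1 had one, and Fn1 on chromosome 1 and Lama4 on chromosome 10 are named only. Capitals mark the GC box (GGGCGG) or the CCAAT box, each on either strand, in the sequence of the gene's own strand. The windows are chr11:55420031-55420330 on the minus strand for Sparc, chr11:95076665-95076964 on the minus strand for the first of 2 Itga3 starts, chr16:33829415-33829714 on the plus strand for Itgb5, and chr10:77166481-77166780 on the minus strand for the first of 2 Col18a1 starts.
Sparc: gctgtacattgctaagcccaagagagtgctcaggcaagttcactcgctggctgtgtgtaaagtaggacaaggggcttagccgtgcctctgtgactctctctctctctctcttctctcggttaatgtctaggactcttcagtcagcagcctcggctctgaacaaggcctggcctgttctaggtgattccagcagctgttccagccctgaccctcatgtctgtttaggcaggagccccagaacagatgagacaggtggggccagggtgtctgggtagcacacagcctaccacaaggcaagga
Itga3: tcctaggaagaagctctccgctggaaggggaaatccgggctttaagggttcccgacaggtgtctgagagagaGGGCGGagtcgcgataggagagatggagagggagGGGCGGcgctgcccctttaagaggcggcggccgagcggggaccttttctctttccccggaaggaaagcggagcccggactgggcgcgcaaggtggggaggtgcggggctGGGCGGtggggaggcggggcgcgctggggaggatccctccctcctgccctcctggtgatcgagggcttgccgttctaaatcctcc
Itgb5: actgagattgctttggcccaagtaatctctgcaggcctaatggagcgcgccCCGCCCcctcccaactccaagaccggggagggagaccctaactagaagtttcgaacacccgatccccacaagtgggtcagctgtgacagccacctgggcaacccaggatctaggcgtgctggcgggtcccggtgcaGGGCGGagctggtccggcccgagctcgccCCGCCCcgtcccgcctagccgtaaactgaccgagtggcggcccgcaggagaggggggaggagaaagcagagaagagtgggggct
Col18a1: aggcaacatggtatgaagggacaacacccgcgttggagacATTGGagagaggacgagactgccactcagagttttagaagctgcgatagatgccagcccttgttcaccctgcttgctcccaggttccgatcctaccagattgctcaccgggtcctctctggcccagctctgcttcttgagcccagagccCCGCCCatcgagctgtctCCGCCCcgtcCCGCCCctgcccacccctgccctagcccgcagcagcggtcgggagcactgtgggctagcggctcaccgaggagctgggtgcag
The Itga3, Itgb5 and Col18a1 windows printed each held 3 GC boxes, and that of Col18a1 also held 1 CCAAT box. The second start of Itga3 had 1 GC box, 1 CCAAT box and 1 AP-1 element, and the second start of Col18a1 had none of the motifs searched. The Sparc window held none of the 5 motifs searched on both strands, which were these 2, the TATA box (TATAAA), the AP-1 element (TGANTCA) and the E box of Myc (CACGTG). No motif overlapped another in the 4 windows printed. Among all 32851 windows of the same length, a GC box was in 35.7%, a CCAAT box in 37.4%, a TATA box in 13.6%, an AP-1 element in 7.81% and the E box in 7.15%. Among the 58 windows of the matrix and integrin genes the shares were 55.2%, 27.6%, 13.8%, 6.9% and 0.0% in the same order. These are matches of letters and show no binding.

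Sparc, a secreted glycoprotein that binds collagen and modulates contact between cell and matrix, had the 2 largest changes among the 10. On its probe set 1416589_at the 3 arrays read 228, 275 and 474 intensity units in overexpressing cells, 715, 676 and 631 in knockdown cells, and 894, 771 and 581 in wildtype cells. All 3 overexpressing arrays lay below the other 6. The means were 326 ± 130.3 (SD, n = 3), 674 ± 41.9 and 749 ± 158 in the same order. The log2 fold change was -1.21 ± 0.23 (SE) for overexpressed over wildtype (adjusted p = 0.0096, limma) and -1.08 ± 0.23 for overexpressed over knockdown (adjusted p = 0.0213).

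The second Sparc probe set, 1448392_at, behaved alike: 184, 168 and 188 units in overexpressing cells, 264, 329 and 342 in knockdown cells, and 579, 376 and 377 in wildtype cells. Here the 3 groups did not overlap at all. Log2 fold changes were -1.20 ± 0.19 over wildtype (adjusted p = 0.0032) and -0.73 ± 0.19 over knockdown (adjusted p = 0.0391). Knockdown cells read between the other groups, at -0.47 ± 0.19 over wildtype (adjusted p = 0.400), which did not pass.

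Both Sparc calls against wildtype held under all 18 alternative settings tried. Against knockdown they did not: the call of 1416589_at was lost without overexpressed array A or B or any knockdown array (adjusted p = 0.0526 to 0.0765), and that of 1448392_at without any overexpressing or knockdown array or without wildtype array B (adjusted p = 0.0520 to 0.112). With no mean-variance trend neither was called over knockdown (adjusted p = 0.0590 and 0.0686). That of 1448392_at was also lost with a pseudocount of 64, quantile normalization, a common array median or the letter as a block (adjusted p = 0.0530 to 0.0752).

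Fn1 encodes fibronectin, a ligand of many integrins. Its probe set 1426642_at read 1944, 1788 and 2603 units in overexpressing cells, 3091, 4031 and 3328 in knockdown cells, and 3068, 3528 and 3148 in wildtype cells. Each overexpressing array was below every other array, while knockdown and wildtype arrays overlapped. The log2 fold change was -0.63 ± 0.14 over wildtype (adjusted p = 0.0196) and -0.73 ± 0.14 over knockdown (adjusted p = 0.0139). Without overexpressed array A, overexpressed array B or wildtype array B the first was no longer called (adjusted p = 0.0741, 0.0759 and 0.0829), nor was the second without overexpressed array A or B or knockdown array B (adjusted p = 0.0597, 0.0510 and 0.0520). With no mean-variance trend neither was called (adjusted p = 0.0688 and 0.0566). The other Fn1 probe set, 1437218_at, averaged 29.4, 25.9 and 26.3 units in the overexpressing, knockdown and wildtype groups, with a 95% interval for overexpressed over wildtype from -1.07 to 1.26.

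Of the other glycoproteins, none was called. The brighter of 2 Nid1 probe sets averaged 17.9 ± 16.1 units in overexpressing, 45.0 ± 20.4 in knockdown and 54.8 ± 22.4 in wildtype cells (SD, n = 3), and its log2 fold change over wildtype was -1.12 ± 0.40 (adjusted p = 0.114). Both Nid1 probe sets were dim, and the other gave 0.05 for overexpressed over wildtype. Tnc, which encodes the anti-adhesive protein tenascin C, averaged 23.1, 30.5 and 24.8 units, and Vtn, which encodes vitronectin, 67.3, 99.6 and 79.4 units in the same order. The arrays of all 3 groups overlapped for each of these genes.

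**Figure D2:**
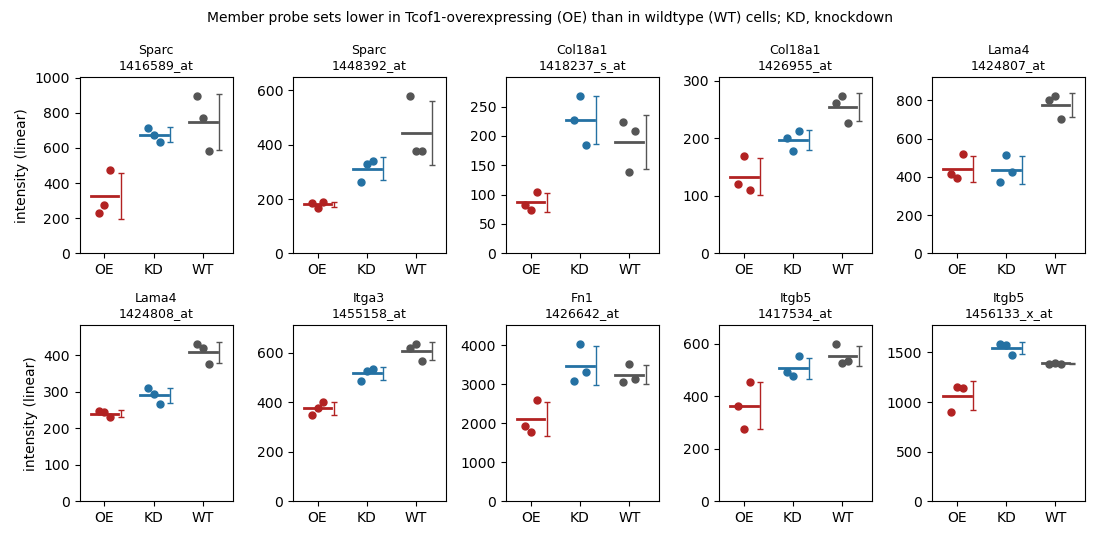
Linear intensity (vertical axes, from 0) on each array for the 10 probe sets that were lower in overexpressing (OE) than in wildtype (WT) cells, with knockdown (KD) cells between them on the axis. Points are arrays A, B and C from left to right, horizontal bars are means and vertical bars are ± SD over 3 arrays. In each panel the 3 overexpressing arrays lie below the 3 wildtype arrays, and for Lama4 1424807_at the knockdown arrays lie as low as the overexpressing ones.

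Lama4, the laminin alpha 4 chain, which is found in basement membranes of vessels, muscle and nerve, was lower on both of its probe sets. The probe set 1424807_at read 413, 392 and 517.5 units in overexpressing cells, 372, 515 and 425 in knockdown cells, and 803, 822 and 704 in wildtype cells. The overexpressing and knockdown arrays spanned the same range, and the wildtype arrays stood above both. The log2 fold change over wildtype was -0.80 ± 0.15 in overexpressing cells (adjusted p = 0.0077) and -0.81 ± 0.15 in knockdown cells (adjusted p = 0.0952), where it did not pass. Overexpressed over knockdown was 0.01 ± 0.15 (adjusted p = 0.975), with a 95% interval from -0.32 to 0.34.

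On 1424808_at the Lama4 values were 246.5, 244 and 231 units in overexpressing cells, 309, 294 and 267.5 in knockdown cells, and 430.4, 419 and 375 in wildtype cells. The 3 groups did not overlap. The log2 fold change over wildtype was -0.72 ± 0.13 in overexpressing cells (adjusted p = 0.0066) and -0.47 ± 0.13 in knockdown cells (adjusted p = 0.247). Both calls in overexpressing cells held under all 18 settings. The knockdown value of 1424807_at passed under 1 of them, a fit of the probe sets above the 40th percentile alone (adjusted p = 0.0461), and Lama4 held the smallest p of the 124 in that comparison.

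No other laminin chain was called in any comparison. On their brightest probe sets, Lama5 and Lamc1, chains of basement membrane laminins, were above the array median on all 9 arrays. Lama5 averaged 371 ± 68.1 units in overexpressing, 475 ± 73.5 in knockdown and 437 ± 77.0 in wildtype cells (SD, n = 3), with a log2 fold change over wildtype of -0.23 ± 0.17 (adjusted p = 0.519). Lamc1 averaged 587 ± 66.7, 554 ± 53.2 and 610.5 ± 30.7 units, with -0.06 ± 0.12 (adjusted p = 0.848) and a 95% interval from -0.32 to 0.20. A second, dim Lamc1 probe set gave -0.61 over wildtype in overexpressing cells and was not called. The 5 probe sets of the 3 laminin beta genes were all dim, and Lamb3 averaged 56.0, 130.0 and 85.5 units in the same order of groups.

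Among the 36 collagen genes only Col18a1 was called. Collagen XVIII is a basement membrane collagen that carries heparan sulfate chains, and its end fragment is known as endostatin. Its probe set 1418237_s_at, whose suffix marks probes shared among transcripts, read 81.7, 74.3 and 104 units in overexpressing cells, 227, 268 and 185 in knockdown cells, and 224, 138 and 209 in wildtype cells. All overexpressing arrays were below all others, and knockdown and wildtype arrays were mixed. On the log2 scale its change was -0.99 ± 0.24 over wildtype (adjusted p = 0.0244) and -1.24 ± 0.24 over knockdown (adjusted p = 0.0118).

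The other Col18a1 probe set, 1426955_at, read 120.0, 169.7 and 110.0 units in overexpressing cells, 199.6, 178 and 212 in knockdown cells, and 261.5, 273 and 226 in wildtype cells, again with no overlap of the overexpressing arrays. Its log2 fold change was -0.87 ± 0.19 over wildtype (adjusted p = 0.0185) and -0.53 ± 0.19 over knockdown (adjusted p = 0.133). The call against knockdown on 1418237_s_at held under all 18 settings. Against wildtype that probe set lost its call without any of overexpressed arrays A and B and wildtype arrays A and C (adjusted p = 0.0763, 0.0820, 0.0917 and 0.0641). The second lost it without overexpressed array A or C or wildtype array A or B (adjusted p = 0.0674, 0.0623, 0.0599 and 0.0786).

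Collagen IV, the network collagen of basement membranes, was not called. Col4a1 averaged 374 ± 69.6 units in overexpressing, 400.0 ± 94.9 in knockdown and 289 ± 93.9 in wildtype cells on 1426348_at, and 386 ± 70.1, 324 ± 98.5 and 291.5 ± 21.5 on 1452035_at. The log2 fold changes over wildtype in overexpressing cells were 0.39 ± 0.25 and 0.38 ± 0.20 (adjusted p = 0.427 and 0.319). Col4a2, which encodes its partner chain, averaged 472.5 ± 103, 440 ± 42.7 and 492 ± 12.5 units in the same order, with -0.08 ± 0.15 (adjusted p = 0.846). Over the 9 probe sets of the 6 collagen IV genes the median was 0.11, and 3 were below 0.

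Several other collagens read lower in overexpressing cells without passing. Col5a3, a minor fibrillar chain, read 278, 229.7 and 290.3 units in overexpressing cells, 386.5, 463.5 and 334 in knockdown cells, and 461, 453.5 and 333 in wildtype cells. All overexpressing arrays were below the others, at -0.61 ± 0.17 over wildtype (adjusted p = 0.0528). Col25a1, a transmembrane collagen of neurons, read 144, 206 and 168 units, 335, 216 and 265, and 271, 319 and 267 in the same order of groups, at -0.68 ± 0.20 (adjusted p = 0.0526). Both passed in a fit of the probe sets above the 40th percentile alone (adjusted p = 0.0249 for Col5a3 and 0.0222 for Col25a1).

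Col7a1, the collagen of anchoring fibrils, averaged 234 ± 45.1 units in overexpressing, 354 ± 70.5 in knockdown and 296 ± 21.7 in wildtype cells, with a log2 fold change over wildtype of -0.34 ± 0.19 (adjusted p = 0.334). Col6a2 of the microfibrillar collagen VI averaged 253 ± 31.4, 277 ± 42.1 and 274.5 ± 17.4 units on 1426947_x_at, at -0.12 ± 0.16 (adjusted p = 0.765). Over the 17 probe sets of fibrillar collagens the log2 fold changes over wildtype ran from -0.66 to 0.31 in overexpressing cells, and over the 17 of fibril-associated collagens from -0.88 to 0.06. The fibril-associated Col22a1 was dim. Its probe set 1453084_s_at averaged 5.43 ± 2.14, 7.13 ± 0.96 and 15.1 ± 0.45 units and was not called in any comparison (adjusted p = 0.0631 for overexpressed over wildtype and 0.378 for knockdown over wildtype).

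**Figure D3:**
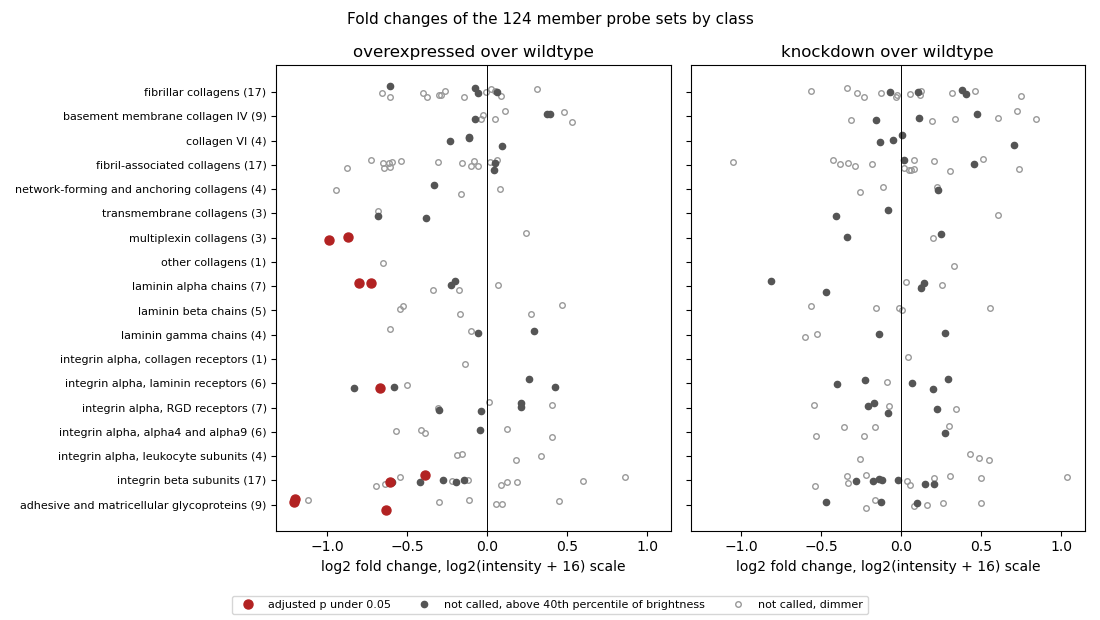
Log2 fold changes over wildtype of the 124 probe sets in overexpressing (left) and knockdown (right) cells, grouped by structural or receptor class, with the number of probe sets of each class in parentheses. Red points have an adjusted p under 0.05, grey points do not, and open points are dim. The 10 red points are all in the left panel and below 0, in the classes of glycoproteins, laminin alpha chains, multiplexin collagens, laminin-binding integrins and integrin beta subunits.

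Among the integrin receptors, Itga3 and Itgb5 were lower in overexpressing cells. Itga3 encodes the alpha 3 subunit, which pairs with beta 1 to bind laminins. On 1455158_at it read 348.5, 375.5 and 399.8 units in overexpressing cells, 486, 527 and 535 in knockdown cells, and 619, 634 and 567 in wildtype cells, so the 3 groups did not overlap. Its change was -0.67 ± 0.11 (log2) over wildtype (adjusted p = 0.0039) and -0.45 ± 0.11 over knockdown (adjusted p = 0.0327), and -0.23 ± 0.11 for knockdown over wildtype (adjusted p = 0.489).

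The Itga3 call against wildtype held under all 18 settings, while that against knockdown was lost without any overexpressing or knockdown array or without wildtype array B (adjusted p = 0.0510 to 0.118). Against knockdown, Itga3 also lost its call with a common array median, no trend, the letter as a block or only the 2 groups fitted (adjusted p = 0.05035 to 0.0886). Its other probe sets, 1460305_at and the dim 1421997_s_at, gave -0.58 ± 0.24 and -0.50 ± 0.22 over wildtype (adjusted p = 0.179 and 0.195) and did not pass.

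Itgb5 encodes the beta 5 subunit, which pairs with alpha v to bind vitronectin, and had 4 probe sets, all above the array median on all 9 arrays. On 1417534_at it read 364, 274.5 and 453 units in overexpressing cells, 491, 476 and 553 in knockdown cells, and 598, 528 and 533 in wildtype cells. On 1456133_x_at it read 901, 1153 and 1143 units in overexpressing cells, 1583, 1571 and 1472 in knockdown cells, and 1387, 1396 and 1386 in wildtype cells. Overexpressing arrays were the lowest on both, and on the second the knockdown arrays stood above the wildtype arrays. The log2 fold changes over wildtype were -0.61 ± 0.16 (adjusted p = 0.0418) and -0.39 ± 0.10 (adjusted p = 0.0387).

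Those 2 calls were close to the threshold. That of 1417534_at was lost without any 1 array except overexpressed array C (adjusted p = 0.0545 to 0.126), and that of 1456133_x_at without any of the 9 (adjusted p = 0.05001 to 0.116). Both were also lost with a common array median, no trend or only the 2 groups fitted (adjusted p = 0.0630 to 0.120). That of 1456133_x_at was lost with the letter as a block as well (adjusted p = 0.0528). The other Itgb5 probe sets, 1417533_a_at and 1456195_x_at, gave -0.42 ± 0.14 and -0.60 ± 0.18 (adjusted p = 0.0844 and 0.0597), so all 4 probe sets had the same sign. Over knockdown the changes of 1417533_a_at and 1456133_x_at were called, at -0.63 ± 0.14 (adjusted p = 0.0219) and -0.53 ± 0.10 (adjusted p = 0.0123). The call of 1456133_x_at over knockdown held without each array in turn but was lost with no mean-variance trend (adjusted p = 0.0574), and that of 1417533_a_at was lost without overexpressed array A or C or knockdown array A or B (adjusted p = 0.0769, 0.0673, 0.0512 and 0.0701) and with no trend (adjusted p = 0.0725).

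The partner subunits and the other laminin receptors of these cells were not called. Itgb1, the beta 1 subunit shared by most matrix-binding integrins, read 2618, 2402 and 3203 units in overexpressing cells, 3006, 2303 and 3036 in knockdown cells, and 3087, 3313 and 2963 in wildtype cells on 1452545_a_at. The groups overlapped, and the log2 fold change over wildtype in overexpressing cells was -0.20 ± 0.13 (adjusted p = 0.443), with a 95% interval from -0.48 to 0.09. On 1426918_at it was -0.15 ± 0.09 in overexpressing cells (adjusted p = 0.402) and -0.28 ± 0.09 in knockdown cells (adjusted p = 0.310). Itgb1 had 6 probe sets, of which only these 2 lay above the 40th percentile, and both values in overexpressing cells were below 0. Across all 6 the signs differed. Over the 6, values over wildtype ran from -0.20 to 0.86 in overexpressing and from -0.54 to 1.03 in knockdown cells, and none was called.

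Itga6, the alpha 6 subunit of laminin-binding integrins, had values above wildtype. Its probe set 1422444_at read 1144, 1259 and 1439 units in overexpressing cells, 1042, 1333 and 923 in knockdown cells, and 976, 886.5 and 981 in wildtype cells. The overexpressing arrays stood above all wildtype arrays, but the log2 fold change of 0.42 ± 0.14 did not pass (adjusted p = 0.0801). On 1422445_at the value was 0.26 ± 0.11 (adjusted p = 0.175). Itga7, another laminin receptor subunit, read 77.2, 129 and 37.9 units in overexpressing cells, 152, 232 and 164 in knockdown cells, and 181, 129 and 127 in wildtype cells, at -0.83 over wildtype (adjusted p = 0.166). Itga7 was singled out after its values were seen.

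Itgav, the alpha v partner of beta 5, averaged 733 ± 83.0 units in overexpressing, 558 ± 53.6 in knockdown and 629 ± 32.4 in wildtype cells on 1452784_at. Its log2 fold change was 0.21 ± 0.12 over wildtype (adjusted p = 0.334) and 0.38 ± 0.12 over knockdown (adjusted p = 0.0776). Itga2b, a subunit best known from platelets, averaged 323 ± 50.1, 344 ± 29.7 and 399.9 ± 37.1 units in the same order, at -0.30 ± 0.15 over wildtype (adjusted p = 0.259). The 4 probe sets of leukocyte alpha subunits and the 1 of a collagen-binding alpha subunit, Itga2, were all dim and uncalled.

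**Figure D4:**
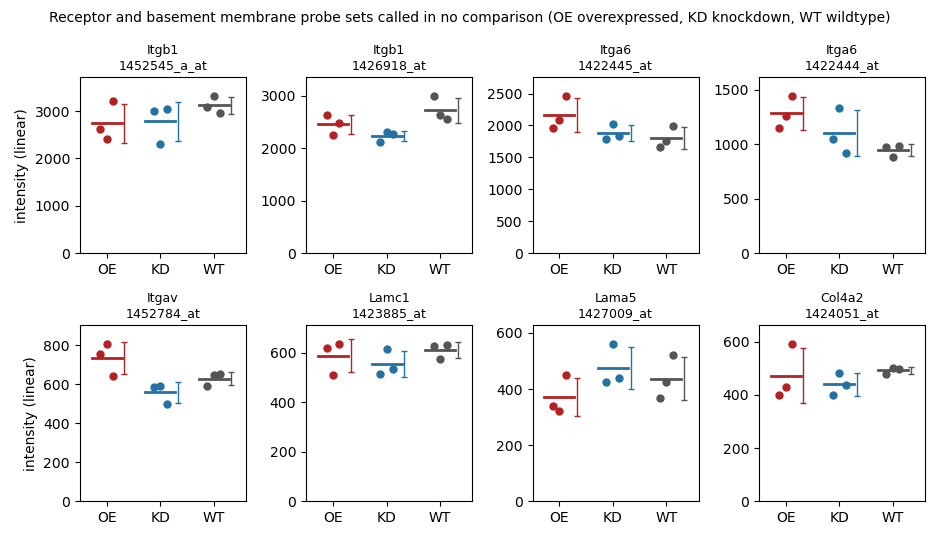
Linear intensity (vertical axes, from 0) on each array for 8 probe sets of integrin subunits, laminin chains and collagen IV that were called in no comparison. Groups are overexpressing (OE), knockdown (KD) and wildtype (WT) cells, points are arrays A, B and C, horizontal bars are means and vertical bars ± SD over 3 arrays. The groups overlap in most panels, and for Itga6 1422444_at the 3 overexpressing arrays lie above the 3 wildtype arrays.

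Genes that process, surround or signal from these proteins were read in 6 lists, each gene by its brightest probe set. Read the same way over all 12393 genes, 6.21% were lower and 5.04% higher in overexpressed over wildtype, with a median of -0.03, and the lower share was 7.75% among probe sets above the 40th percentile. A list's share near these is no result about the list. In overexpressing cells 4 of 23 genes of collagen modification and crosslinking were lower than in wildtype and 1 was higher. P4ha1 and P4ha2 encode catalytic subunits of the prolyl hydroxylase that stabilises the collagen helix. P4ha2 read 1202.5, 1220.1 and 1261 units in overexpressing cells, 2775, 2679.5 and 2884 in knockdown cells, and 2006.5, 2366 and 2223 in wildtype cells, with no overlap of the 3 groups. Its log2 fold change over wildtype was -0.83 ± 0.08 in overexpressing cells (adjusted p = 0.0004) and 0.34 ± 0.08 in knockdown cells (adjusted p = 0.192).

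P4ha1 averaged 482 ± 64.9 units in overexpressing, 1114 ± 114 in knockdown and 748 ± 82.6 in wildtype cells (SD, n = 3), at -0.62 ± 0.13 over wildtype (adjusted p = 0.0151). Mia3, which helps load collagen for export from the endoplasmic reticulum, was lower, at -0.73 ± 0.16 (adjusted p = 0.0164). The call of P4ha2 held under all 18 settings, and those of P4ha1 and Mia3 were lost without overexpressed array A or wildtype array B (adjusted p = 0.0585 to 0.0674). Pcolce, an enhancer of procollagen cleavage, at -0.47 (adjusted p = 0.0178), and Ppib, a prolyl isomerase of the same compartment, at 0.41 (adjusted p = 0.0293), are named after their values were seen. Pcolce lost its call without overexpressed array B or C or wildtype array A (adjusted p = 0.0553 to 0.0605), and Ppib without overexpressed array B or C or wildtype array A or B (adjusted p = 0.0603 to 0.106).

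In knockdown cells 0 of the 23 were called, and the list median over wildtype was 0.17, against 0.04 for all genes read the same way, while in overexpressing cells it was -0.10, against -0.03. Plod2, a lysyl hydroxylase of collagen, averaged 778 ± 88.1 units in overexpressing, 1454 ± 194.5 in knockdown and 835 ± 116 in wildtype cells. Its log2 fold change in knockdown over wildtype was 0.79 ± 0.14 (adjusted p = 0.0918), which passed without wildtype array C (0.88, adjusted p = 0.0384). Overexpressed over knockdown it was lower, at -0.88 ± 0.14 (adjusted p = 0.0044), as were P4ha1 at -1.19 ± 0.13 (adjusted p = 0.0009) and P4ha2 at -1.17 ± 0.08 (adjusted p = 6.89e-05), and these 3 calls held under all 18 settings.

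Other matrix glycoproteins and proteoglycans had 5 of 55 genes lower in overexpressing than in wildtype cells and 0 higher, with a list median of -0.16. Fibulins 1 and 2, which bind fibronectin, laminin and elastic fibres, were lower, at -0.48 ± 0.08 for Fbln1 (adjusted p = 0.0051) and -0.91 ± 0.16 for Fbln2 (adjusted p = 0.0061). Ltbp3, which holds latent TGF-beta in the matrix, averaged 200.2 ± 5.78 units in overexpressing, 371 ± 24.8 in knockdown and 476 ± 118 in wildtype cells, at -1.16 ± 0.17 (adjusted p = 0.0023). These 3 calls held under all 18 settings. Mfap2 and Vwa1, at -0.60 and -0.91 (adjusted p = 0.0117 and 0.0106), were named after their values were seen, and that of Mfap2 was lost without overexpressed array A or wildtype array B (adjusted p = 0.0512 and 0.0520).

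Among proteins that work with integrins at adhesions, 5 of 41 genes were lower in overexpressing cells and 0 higher, with a list median of -0.04. Cd81, a tetraspanin that associates with integrins in the membrane, averaged 4115 ± 83.5 units in overexpressing, 5910.0 ± 263 in knockdown and 6341 ± 81.8 in wildtype cells, at -0.62 ± 0.07 over wildtype (adjusted p = 0.0008). Sharpin, an inhibitor of integrin activation, was lower, at -0.49 ± 0.09 (adjusted p = 0.0082), and both calls held under all 18 settings. Parva, which joins the integrin-linked kinase complex, was lower, at -0.79 ± 0.18 (adjusted p = 0.0192), a call lost without overexpressed array C or wildtype array B or C (adjusted p = 0.0513 to 0.0737). The other 2 genes, Cd47 and Cd9, changed by -0.33 and -0.36 and each lost its call without at least 4 of the 9 arrays (adjusted p = 0.0538 to 0.159).

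Non-integrin matrix receptors had 1 of 23 genes lower and 0 higher, with a list median of 0.05. It was Gpc1, a heparan sulfate proteoglycan of the cell surface, at -0.73 ± 0.15 (adjusted p = 0.0145), lost without overexpressed array A or wildtype array B (adjusted p = 0.0566 and 0.0662). Of 37 matrix proteases and inhibitors, 2 were lower and 1 higher, with a list median of -0.06. Timp2, an inhibitor of matrix metalloproteinases, fell by 0.74 on the log2 scale (adjusted p = 0.0096) under all 18 settings. Plat, the tissue plasminogen activator, at -0.78 (adjusted p = 0.0412), and Adam12, a membrane metalloprotease, at 0.62 (adjusted p = 0.0361), lost their calls without 8 and 6 of the 9 arrays (adjusted p = 0.0538 to 0.127).

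TGF-beta ligands, receptors and Smads, which include regulators of collagen genes, had 2 of 22 genes lower and 2 higher in overexpressing cells, with a list median of 0.04. The receptor gene Acvrl1 averaged 203 ± 11.3 units in overexpressing, 479 ± 50.5 in knockdown and 424 ± 29.6 in wildtype cells and was lower in overexpressing than in wildtype cells at a fold of 0.499 (adjusted p = 0.0014), a call kept under all 18 settings. The inhibitory Smad7 was higher by 0.74 ± 0.17 (adjusted p = 0.0184), lost without any of overexpressed array B and wildtype arrays A and B (adjusted p = 0.0506 to 0.0698). Acvr1, at 0.68 (adjusted p = 0.0306), and Inhba, at -1.17 (adjusted p = 0.0442), lost their calls without 6 and 7 of the 9 arrays (adjusted p = 0.0531 to 0.155). Inhba was named after its values were seen. In knockdown cells 0 genes of these 6 lists were called by limma, with 28 of 200 genes (14.0%) at an unadjusted p under 0.05, against 11.8% of all 12393 genes read the same way.

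**Figure D5:**
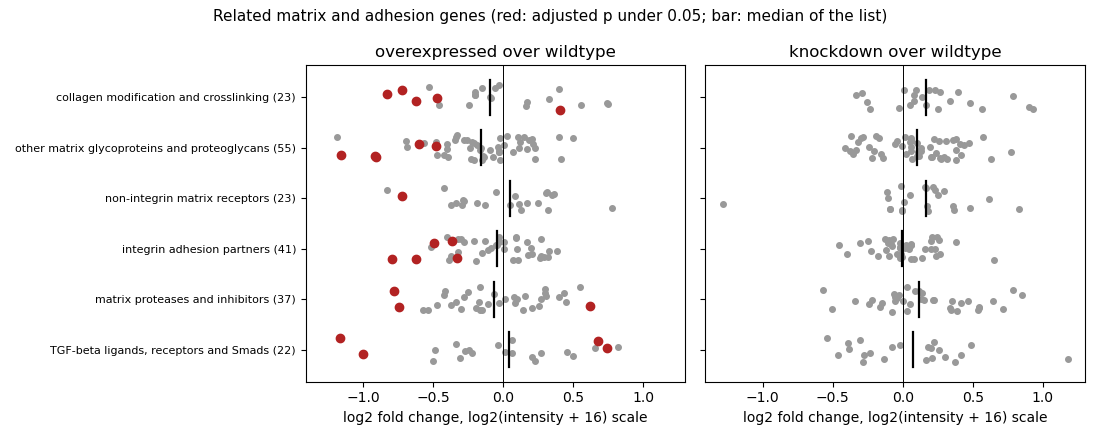
Log2 fold changes over wildtype of the genes of the 6 related lists in overexpressing (left) and knockdown (right) cells, each gene by its brightest probe set, with list sizes in parentheses. Red points have an adjusted p under 0.05 and black bars are list medians. Red points appear in the left panel, mostly below 0, and there are 0 in the right panel.

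Markers of other cell types were read beside these values. The summed intensity of the 12 fibroblast markers was 17424 to 18291 in overexpressing, 16222 to 19123 in knockdown and 17085 to 17498 in wildtype arrays, most of it from Vim, and 2 of the 12 were lower in overexpressing cells, Pdgfrb at -2.01 (adjusted p = 0.0041) and S100a4 at -0.62 (adjusted p = 0.0238). Pdgfrb averaged 22.5, 110.4 and 146 units in the overexpressing, knockdown and wildtype groups. The 10 endothelial markers summed to 845 to 876.5 in overexpressing, 993 to 1246 in knockdown and 931 to 992 in wildtype arrays, with 1 lower (Pecam1). The 7 measured markers of Schwann cells and glia summed to 629 to 793, 880 to 993 and 915 to 1011 in the same order, with 1 lower (Erbb3). The 8 measured blood and immune markers summed to 666 to 744, 590.5 to 956 and 720 to 814, with 0 called, and 0 of the endothelial and immune markers lay above the array median on all 9 arrays. The 13 markers of the line's own type summed to 41600 to 45857 in overexpressing, 51083 to 55094 in knockdown and 48751 to 53394 in wildtype arrays. Of these 13, 3 were lower (Chga, Ache and Stmn2) and 1 was higher (Dbh) in overexpressing cells. Of all 12393 genes, each by its brightest probe set, 6.21% were lower and 5.04% higher in that comparison. The part of these markers in the lower matrix and integrin values was not tested.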

How the data were processed

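Gene expression had been measured on 9 arrays of 1 colour with probe sets of the Affymetrix kind. The authors deposited linear intensity values, 1 per probe set and array. Their software, background correction and scaling stay not given in the sources used here. After dropping 2% of values at each end, every array averaged about 500.2, so the deposited intensities carry a common scaling. Of 22690 probe sets, 64 controls were left out, and 20380 of the other 22626 had exactly 1 symbol in the platform annotation.

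Values were used as deposited, because array medians differed by less than the limit of 1.2 times, and converted to log2(intensity + 16), which understates changes of dim probe sets. A mean per group was fitted to all 9 arrays with lmFit of limma 3.58.1 (R 4.3.3), and eBayes used a mean-variance trend. In each of 3 contrasts, p-values of all 22626 probe sets were adjusted together by Benjamini-Hochberg. Values are log2 fold changes ± SE from the fit and mean intensities ± SD. The table holds no detection calls, and the number of arrays limits the precision.

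The members and gene lists were chosen with earlier results of these data known. Named by rule were called members, the 5 smallest p-values where fewer than 5 were called, all probe sets of those genes, the brightest probe set of each class and of the 5 glycoproteins, and up to 3 genes per list and comparison with wildtype by smallest p. Other members given by value, such as Itga6 1422444_at, Itga7, Itga2b, Col4a1 and Lama5, were not picked by this rule. Alternatives were pseudocounts of 1 and 64, probe sets above the 40th percentile alone, quantile normalization, a common array median, no trend, array weights, the letter as a block, the 2 groups alone, and each array left out. Counts per gene and per list under these settings were added after seeing the data. Promoter windows came from a RefSeq table of GRCm38.p6, and probe sets were not placed on the genome.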

Additional observations from a re-analysis of the deposited data

How the results depend on the processing

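Under the 18 settings, the 17 called values of the matrix and integrin probe sets kept their direction, and stayed called in 231 of 306 cases. Of 10 probe sets lower in overexpressed over wildtype, array weights gave 16 (15 lower and 1 higher, Itga6), and leaving out 1 array gave 5 to 10, the fewest without overexpressed array A. Without wildtype array A or B there were 6. For knockdown over wildtype the count of 0 became 1 (Lama4) among probe sets above the 40th percentile. For overexpressed over knockdown the count of 7 became 11 among probe sets above the 40th percentile and 1 with no mean-variance trend, and 2 to 7 without 1 array, the fewest without overexpressed array A or knockdown array B. The cause was not tested. With the replicate block, the counts were 10, 0 and 6 in these 3 comparisons. Deviations from the group means correlated weakly between arrays of the same letter in different groups (r = -0.012 to 0.102). For arrays of different letters r was -0.12 to 0.099. The letters were not used as pairs in the main fit, and in overexpressed over wildtype 9 of the 10 kept their call under the block. Over all probe sets, calls numbered 2169 in overexpressed over wildtype, 1339 with no trend and 1090 to 2404 without 1 array. They numbered 3 in knockdown over wildtype, 46 above the 40th percentile, 24 with array weights, 0 with the replicate block and 0 to 103 without 1 array. They numbered 1713 in overexpressed over knockdown, 834 with no trend and 704 to 2048 without 1 array. The share of these that was higher was 45.3%, against 57.5% with a common array median, under which 1 of 6 called matrix and integrin probe sets, for Itgav, was higher. Among list genes called over wildtype, Mia3, Parva, Mfap2, Pcolce, Ppib, Plat, Cd47, Cd9 and Inhba lost their calls with no trend (adjusted p = 0.0522 to 0.137). Pcolce, Plat, Cd47 and Cd9 also lost them with a common array median (adjusted p = 0.0549 to 0.149). Adam12, Inhba and Cd9 did so under the block, and Ppib, Plat, Cd47 and Cd9 with only the 2 groups fitted. Dim probe sets had the wider spread, and smaller changes in them would not have been detectable.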

Other observations

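The difference between 2 probe sets on the same array does not depend on the scaling of that array, and its shift between groups was read for 2 pairs of genes chosen after their values were seen, with no test. The log2 value of Itga3 minus that of Itga6, both alpha subunits of laminin receptors, was -2.57 to -2.42 in overexpressing, -1.91 to -1.75 in knockdown and -1.79 to -1.41 in wildtype arrays. The value of Lama4 minus that of Lama5 was 0.20 to 0.27 in overexpressing, -0.19 to -0.05 in knockdown and 0.43 to 1.10 in wildtype arrays. The levels of different probe sets cannot be compared, so only the shifts can be read. The promoter windows of Col4a1 and Col4a2, which face each other on opposite strands of the same chromosome, overlapped by 78 bases.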
